A study of Caenorhabditis elegans with 24 samples.

Results

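The comparison described here sets embryos of Caenorhabditis elegans collected 270 min after the 4-cell stage against embryos collected 180 min after it. Its members are the 3 libraries labelled 270 min and the 3 labelled 180 min, 6 of the 24 small-RNA libraries of a timecourse with 8 stages. All embryos were of the wild-type strain N2. They were cut out of adult worms, picked by mouth pipette and pooled, 50 embryos to a sample, so a library averages over whole embryos and cannot place a miRNA in a cell. In such pools, fewer cells of a type and less RNA per cell cannot be told apart. The labels do not say whether the 3 replicates of a stage were separate cultures. The p-values therefore cover the spread among replicate libraries alone, estimated over all 24, and that spread may be technical.

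A miRNA is cut from a hairpin precursor whose 2 strands, the 5p and the 3p arm, can each be loaded into an Argonaute protein, where a short seed at the start of the arm picks the mRNAs to be repressed. In worm embryos the mir-35 family acts early and is needed for viability, while miRNAs such as mir-1 of muscle and mir-124 of sensory neurons come with differentiating tissues. In the hours after the 4-cell stage the embryo gastrulates, its cells finish most of their divisions, and morphogenesis then begins. The labels give minutes and no anatomical stage.

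The count table lists 434 mature arms, of which 221 had at least 1 read in the 6 libraries. The 128 tested arms were those that passed a filter on low counts applied to all 24 libraries, so an arm could pass through its counts at later or earlier stages. Some were scarce in the 6 libraries: miR-790-5p had 1 read there, in 270 min replicate 1. The percentages of all tested arms that were called count such arms too. Together the 128 held between 99.96% and 99.98% of the counts of each of the 6 libraries. The other 93 arms with reads at these stages had at most 54 reads in the 6 libraries together, and 61 of them had 10 or fewer. Total counts ran from 103144 to 753471 at 180 min and from 387540 to 1273548 at 270 min, so an arm near the detection limit was easier to see at 270 min. The shallowest of the 6 was 180 min replicate 2. It also had the highest TMM factor, a scaling factor that sets the bulk of the arms level between libraries, at 1.76 against 0.810 for 180 min replicate 1. Replicates had correlations of log2 CPM (counts relative to library size) across arms of 0.939 to 0.963 at 180 min and 0.955 to 0.972 at 270 min, and libraries of different stages of 0.883 to 0.928.

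Between 180 and 270 min the miRNA pool of the embryo changed its leading species. miR-57-3p rose 14.7-fold and became the most abundant arm, while miR-229-3p and miR-36-3p fell 5.17-fold and 5.49-fold. Folds here are relative to the bulk of the arms, which the TMM factors set level, and are not amounts per embryo. A group of arms with no or almost no reads at 180 min came into view, among them miR-236-3p, miR-1822-5p and the neuronal miR-124-5p. Of 128 arms tested, 15 passed an adjusted p of 0.05 (11.7%; edgeR quasi-likelihood test, Benjamini-Hochberg adjustment over the 128), with 8 higher and 7 lower at 270 min. At an unadjusted p under 0.05 there were 27 (21.1%). The 3 libraries of 270 min lay all above or all below those of 180 min in 44 arms (34.4%), including 14 of the 15 called. miR-57-3p, miR-229-3p, miR-36-3p and miR-236-3p stayed past the threshold without any 1 of the 6 libraries; the other 11 did not, and the libraries concerned are named with each. Without 1 library the count ran from 5 to 10.

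**Figure D1:**
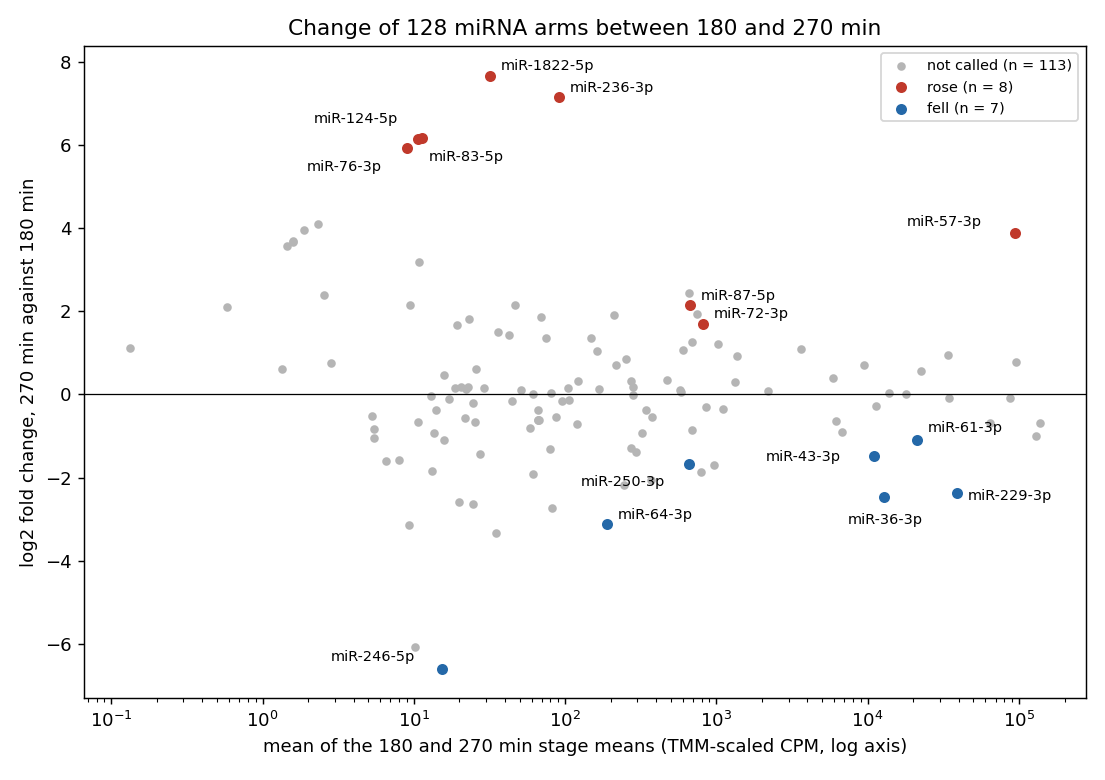
Each point is 1 of the 128 tested arms, with the mean of its 180 and 270 min levels (TMM-scaled CPM, log axis) on the x axis and its log2 fold change from 180 to 270 min on the y axis; red points rose, blue points fell and grey points were not called. miR-57-3p stands apart among abundant arms at 3.87, and 5 of the 8 risers sit at low levels with fitted changes near 6 or above.

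miR-57-3p was the member with the strongest evidence of change. Its hairpin, mir-57, belongs to the conserved miR-10 family, is known for its activity in the posterior of the embryo, and lies on chromosome II from 7850499 to 7850597 on the minus strand, outside protein-coding genes (WBcel235). The arm took 0.984%, 1.11% and 1.98% of counts in the 3 libraries of 180 min. It took 23.3%, 18.4% and 19.1% in those of 270 min. The lowest 270 min library was thus far above the highest 180 min library, and by its mean share the arm moved from rank 16 to rank 1. On the TMM scale its level went from 12106 ± 5770.4 to 177533 ± 51219 CPM (SD, n = 3 each), or 3.87 ± 0.41 on the log2 scale (SE; edgeR adjusted p 8.42e-09). Libraries of 225 min lay between, at 5.89%, 4.42% and 6.34%. Both steps passed the test, with log2 fold changes of 1.82 ± 0.38 from 180 to 225 min (edgeR adjusted p 0.00382) and 2.05 ± 0.38 from 225 to 270 min (0.000682). The 5p arm of mir-57 had 0 reads at both stages.

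miR-236-3p was close to absent at 180 min, with 1, 0 and 0 reads. mir-236 is the worm's relative of the miR-200 family and lies on chromosome II from 7030180 to 7030277, outside protein-coding genes. At 225 min it had 33, 4 and 37 reads and at 270 min 225, 146 and 51. All 225 and 270 min libraries were above all those of 180 min. Pooled over the libraries of a stage, the 270 min to 180 min ratio was 232 (95% counting interval 41.4 to 9184), and the fitted log2 fold change was 7.14 ± 1.42 (edgeR adjusted p 0.000727). Such intervals and the floors used here hold counting error alone, because PCR copies of a molecule are not independent reads. Its rise was already called from 180 to 225 min (log2 fold change 5.92 ± 1.40, edgeR adjusted p 0.0115). That step and the next did not differ past the threshold (adjusted p 0.907 for the difference).

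Several arms had no read in any 180 min library. Their folds are lower bounds for the stage at 0 alone, taken against 3 reads summed over its libraries. The reads of the other stage enter as counted, with no allowance for their spread. miR-1822-5p, from an intron of ZK84.2 (mir-1822, chromosome II, 6015534 to 6015627), had 0 reads at 180 and 225 min and 67, 56 and 18 at 270 min. The rise was at least 25.8-fold (edgeR adjusted p 0.0143) and no longer passed once 180 min replicate 1 or 3 was left out (adjusted p up to 0.0832). Without 180 min replicate 3, the deepest library of that stage, the bound was 8.74-fold. miR-83-5p, of a hairpin whose 3p arm is related to miR-29 (mir-83, chromosome IV, 7841631 to 7841728), had 54, 6 and 5 reads at 270 min, a rise of at least 11.9-fold (edgeR adjusted p 0.0458). Most of these reads came from 270 min replicate 1. The bound was 4.46-fold without that library and 4.03-fold without 180 min replicate 3. miR-83-3p itself had 16 reads at 180 min and 11 at 270 min. miR-76-3p (mir-76, chromosome III, 3142045 to 3142141) had 47, 0 and 8 reads at 270 min. The rise was at least 10.1-fold (edgeR adjusted p 0.0393), although 270 min replicate 2 was at 0 like the 180 min libraries. Here too 270 min replicate 1 held most of the reads, and the bound was 3.24-fold without it and 3.41-fold without 180 min replicate 3. The miR-76-3p call was lost without any 180 min library or without 270 min replicate 1 or 3 (adjusted p up to 0.192), and that of miR-83-5p without any 1 of the 6 libraries (up to 0.191). In a fit of the 6 compared libraries alone neither passed (edgeR adjusted p 0.0681 for miR-76-3p and 0.0514 for miR-83-5p), nor did miR-83-5p without the filter on low counts (0.148).

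Of the markers of differentiated tissues, neuronal miR-124-5p rose. Its hairpin sits in an intron of trpa-1 on chromosome IV (11871738 to 11871833). It had 0 reads at 180 min, 0, 0 and 3 at 225 min and 16, 13 and 15 at 270 min. This rise of at least 8.06-fold (edgeR adjusted p 0.0475) was lost without any 1 of the 6 libraries (up to 0.192), in the fit of the 6 alone (0.0514) and without the filter on low counts (0.148). The bound was 2.73-fold without 180 min replicate 3. The 3p arm, the one conserved across animals, had 2 reads at 180 min and 0 at 270 min. miR-1-3p, the conserved arm of mir-1, had 7 reads and then 78, against 390 and then 2333 for miR-1-5p. Which arm holds the reads in this table is therefore uncertain for single hairpins. Of the list of tissue-restricted miRNAs (mir-1, mir-124, lsy-6, mir-60, mir-791 and mir-228), 1 of 7 tested arms was called, a rise, against 6.25% of all tested arms. Its median log2 fold change was 1.27, beside 0.03 over all 128. Muscle miR-1-5p had 0.0526%, 0.0640% and 0.0219% of counts at 180 min and 0.109%, 0.127% and 0.102% at 270 min. These libraries did not overlap, but the log2 fold change of 1.27 ± 0.65 did not pass the test (edgeR adjusted p 0.235). lsy-6-3p, which sets left-right asymmetry in a pair of taste neurons, had 12 reads in 270 min replicate 1 and 0 in the other 5 libraries. Glial miR-228-5p (log2 fold change 0.55 ± 0.49) and intestinal miR-60-3p (0.07 ± 0.69) were not called.

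**Figure D2:**
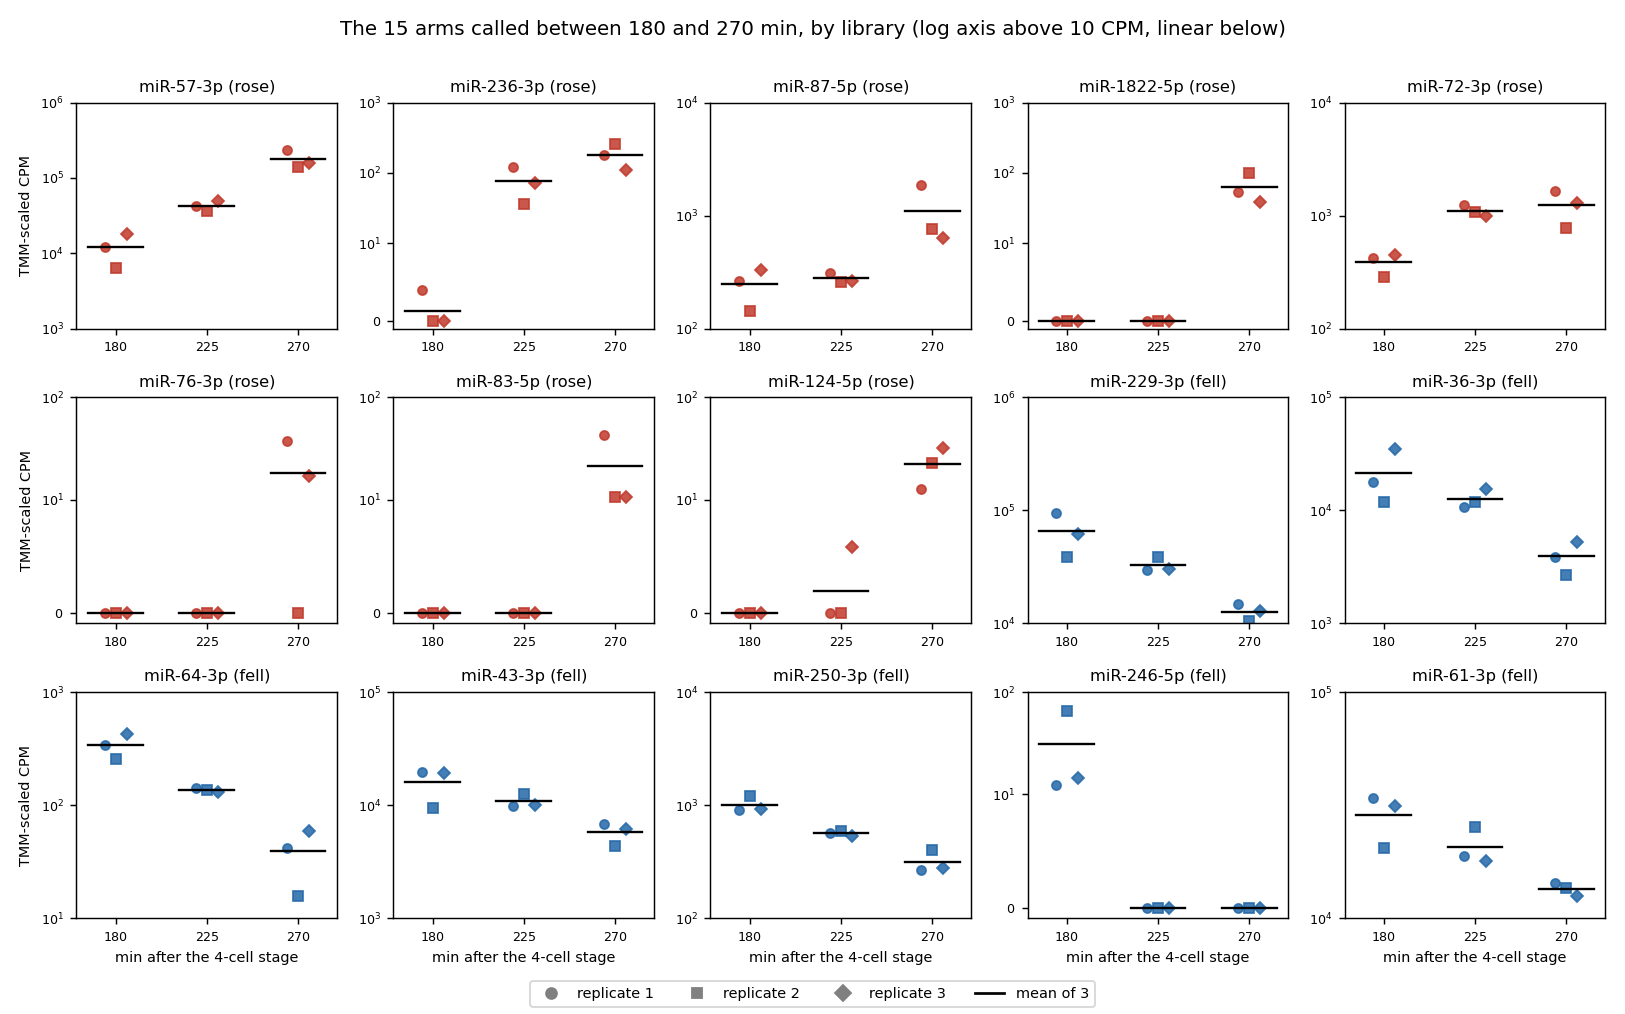
TMM-scaled CPM of the 15 called arms in each library at 180, 225 and 270 min (log axis above 10 CPM, linear below); symbols mark replicates 1 to 3, black bars the mean of 3, red arms rose and blue arms fell. In 14 of the 15 panels the 180 and 270 min libraries do not overlap; in the other, miR-76-3p, 270 min replicate 2 is at 0.

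miR-87-5p and miR-72-3p were, besides miR-57-3p, the risers with more than 1 read at 180 min. miR-87-5p, from an intron of kup-1 on chromosome V (mir-87, 12038688 to 12038781), had levels of 266, 143 and 328 CPM at 180 min. They were 311, 257 and 265 CPM at 225 min and 1881, 755 and 636 CPM at 270 min. All 270 min libraries were above all the others, and replicate 1 was the highest. The log2 fold change was 2.14 ± 0.53 (edgeR adjusted p 0.00737), or 1.49 without 270 min replicate 1, where the call was lost (adjusted p 0.112). The step from 225 to 270 min was called (1.97 ± 0.53, edgeR adjusted p 0.0419). miR-72-3p comes from the miR-31 relative mir-72 (chromosome II, 2452838 to 2452936). It stood at 417, 286 and 449 CPM at 180 min, 1240, 1066 and 1001 CPM at 225 min, and 1661, 783 and 1303 CPM at 270 min. Its log2 fold change was 1.70 ± 0.52 (edgeR adjusted p 0.0366), and its call was lost without any 1 library other than 270 min replicate 2 (up to 0.152) and without the filter on low counts (0.215).

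The falls were led by miR-229-3p, an arm of the mir-64, mir-65, mir-66 and mir-229 cluster whose hairpins lie inside gcn-1, in introns (mir-229, chromosome III, 2172452 to 2172566). It took 7.75%, 6.82% and 6.91% of counts at 180 min. Libraries of 225 min had 4.15%, 4.77% and 3.85%, and those of 270 min 1.46%, 1.38% and 1.56%. By share the 3 stages formed separate groups with little spread in each. On the TMM scale the 180 min libraries (95687, 38696 and 62376 CPM) overlapped those of 225 min (29938, 38794 and 30191 CPM). That step was not called (-0.99 ± 0.40, edgeR adjusted p 0.382). From 180 to 270 min the log2 fold change was -2.37 ± 0.41 (edgeR adjusted p 0.000145), and the step from 225 to 270 min was called (-1.38 ± 0.40, edgeR adjusted p 0.0419). miR-64-3p, the minor arm of mir-64 (2172848 to 2172957), had 83, 47 and 354 reads at 180 min and 53, 9 and 28 at 270 min. Its log2 fold change was -3.11 ± 0.88 (edgeR adjusted p 0.0227), and it did not pass when replicate 1 or 3 of 180 min or replicate 1 or 2 of 270 min was left out (up to 0.103).

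Within the cluster, 2 of 8 tested arms fell, against 5.47% of all tested arms, and 6 were not called. The median log2 fold change of its arms was -1.68 and its range -3.14 to 0.01. The major arms miR-64-5p (-0.70 ± 0.35, edgeR adjusted p 0.233) and miR-65-5p (-0.997 ± 0.389, 0.110) did not pass, although each took a lower share of counts in every 270 min library than in any of 180 min. As a whole the cluster supplied 52.8%, 41.6% and 46.7% of counts at 180 min and 24.3%, 32.5% and 23.2% at 270 min. A share also goes down where another miRNA takes up counts, as miR-57-3p did here.

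miR-36-3p was the called member of the mir-35 family (mir-36, chromosome II, 11537713 to 11537809). It stood at 17971, 11799 and 35165 CPM at 180 min and 3857, 2703 and 5273 CPM at 270 min, with no overlap. The log2 fold change was -2.46 ± 0.50 (edgeR adjusted p 0.000727), and the step from 225 to 270 min was called (-1.68 ± 0.48, edgeR adjusted p 0.0419). As a list the family was mixed: 1 of 14 tested arms was called, a fall (5.47% of all tested arms fell), 13 were not, and the median was -0.57 with a range from -3.34 to 1.91. miR-35-3p (-1.70 ± 0.70, edgeR adjusted p 0.126) and miR-40-3p (-2.06 ± 0.84, 0.126) were lower in every 270 min library than in any 180 min library. miR-35-5p was higher in every one (1.91 ± 1.05, 0.270), and miR-39-5p had a log2 fold change of 0.09 ± 0.63. The share of the family was 1.97%, 2.71% and 4.76% at 180 min and 0.664%, 1.29% and 1.04% at 270 min. Its members are close in sequence and could share reads in counting, so single members are less certain than this sum.

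A further 3 falling arms came from 2 more groups of neighbouring hairpins. miR-43-3p, a relative of miR-2 in the mir-42, mir-43 and mir-44 cluster (mir-43, chromosome II, 11889910 to 11890007), stood at 19553, 9389 and 19288 CPM at 180 min. At 270 min it stood at 6881, 4340.0 and 6220.0 CPM, a log2 fold change of -1.47 ± 0.43 (edgeR adjusted p 0.0272). In the same cluster, miR-44-5p took 8.63%, 10.8% and 7.69% of counts at 180 min and 4.76%, 6.78% and 5.79% at 270 min, but its log2 fold change of -0.69 ± 0.34 did not pass (edgeR adjusted p 0.231). miR-61-3p and miR-250-3p come from hairpins that lie 45 bases apart on chromosome V (mir-61, 11770060 to 11770156; mir-250, 11769917 to 11770015). mir-61 is known from the vulval cells of the larva, where it acts downstream of the receptor LIN-12. miR-61-3p stood at 33959, 20467 and 31476 CPM at 180 min and at 14325, 13594 and 12538 CPM at 270 min (-1.09 ± 0.37, edgeR adjusted p 0.0475). miR-250-3p stood at 908, 1205 and 920.0 CPM and then at 267, 403 and 277 CPM (-1.68 ± 0.52, edgeR adjusted p 0.0366). All 3 arms were lower in each 270 min library than in any of 180 min. The calls of miR-43-3p and miR-61-3p were lost without any 1 library other than 180 min replicate 2 (up to 0.118 and 0.169), and that of miR-250-3p without any 1 of the 6 (up to 0.140). None of these 3 passed without the filter on low counts (edgeR adjusted p 0.360 for miR-43-3p, 0.493 for miR-61-3p and 0.460 for miR-250-3p) or without the 5 most abundant arms (0.0652, 0.151 and 0.0640). miR-61-3p also missed the threshold in the fit of the 6 libraries alone (0.0644).

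miR-246-5p was the only falling arm whose hairpin had no neighbour (mir-246, chromosome IV, 10940134 to 10940230). mir-246 is known from the gonadal sheath of the adult, and it stands in the list of markers of maternal or larval tissue. It had 3, 12 and 12 reads at 180 min and 0 in every library of 225 and 270 min, at least 16.4-fold lower at 270 min (edgeR adjusted p 0.0458). The call was lost without any 1 of the 6 libraries (up to 0.167), without the filter on low counts (0.148) and without the 5 most abundant arms (0.0582). The bound was 10.6-fold without 180 min replicate 2, 26.9-fold without 180 min replicate 3 and 7.40-fold without 270 min replicate 1. At the other stages miR-246-5p came and went, with 72 reads at 60 min, 4 at 120 min and 2, 24 and 4 at 330, 410 and 500 min. Its change from 270 to 410 min did not pass (log2 fold change 5.31 ± 2.03, edgeR adjusted p 0.0715). Of the 14 arms of the marker list (lin-4, let-7, mir-48, mir-84, mir-241, mir-246 and mir-247), 8 had reads in the 6 libraries. Their sum was 0.0200% to 0.0339% of counts at 180 min and 0.0189% to 0.0304% at 270 min, most of it miR-48-5p. lin-4 and mir-84 were at 0, and let-7 had 1 read. The part of maternal tissue in the fall of miR-246-5p was not tested.

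The genomic positions of the called hairpins were looked at after their values were seen, and give a description with no test. Of the 7 hairpins with a falling arm, 6 had another miRNA hairpin within 10000 bases on the same strand in the annotation. Of the 8 hairpins with a rising arm, 0 had one. Among the 91 hairpins of tested arms with a position, 40 had such a neighbour. By arms, these were 62 of 127 (48.8%). Neighbours share a source in that they can be cut from 1 transcript, so they are not independent members.

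The 2 arms of a hairpin often had different values. Both arms were tested for 36 hairpins, both had changes of the same sign in 23, and both were called in 0. For mir-229 the 3p arm made up 83.3%, 81.9% and 70.7% of the hairpin's reads at 180 min and 56.7%, 30.9% and 39.7% at 270 min, while miR-229-5p changed by 0.01 ± 0.53 on the log2 scale, which was not called. For mir-87 the 3p arm made up 56.1%, 42.2% and 46.3% at 180 min and 22.3%, 20.7% and 21.8% at 270 min. The log2 fold change of miR-87-3p, 0.33 ± 0.69, was not called, and it was -0.02 without 180 min replicate 2 and -0.38 without 270 min replicate 1. The 3p share of mir-72 was 0.301%, 0.681% and 0.503%, and then 1.61%, 1.03% and 1.71%. Among the 29 hairpins with both arms tested and at least 20 reads in each of the 6 libraries, the 3p share was higher in every 270 min library than in any 180 min library in 3 and lower in 7. With 3 libraries against 3, an exact two-sided permutation test cannot go below 0.1. That is its value for each of these 10 because they were picked for full separation, so it adds no evidence. By level rather than arm share, 44 of all 128 tested arms (34.4%) had libraries that did not overlap. How reads were assigned to the arms is not given in the sources used here, and miR-44-3p, for one, had 0 reads while miR-44-5p was among the most abundant.

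**Figure D3:**
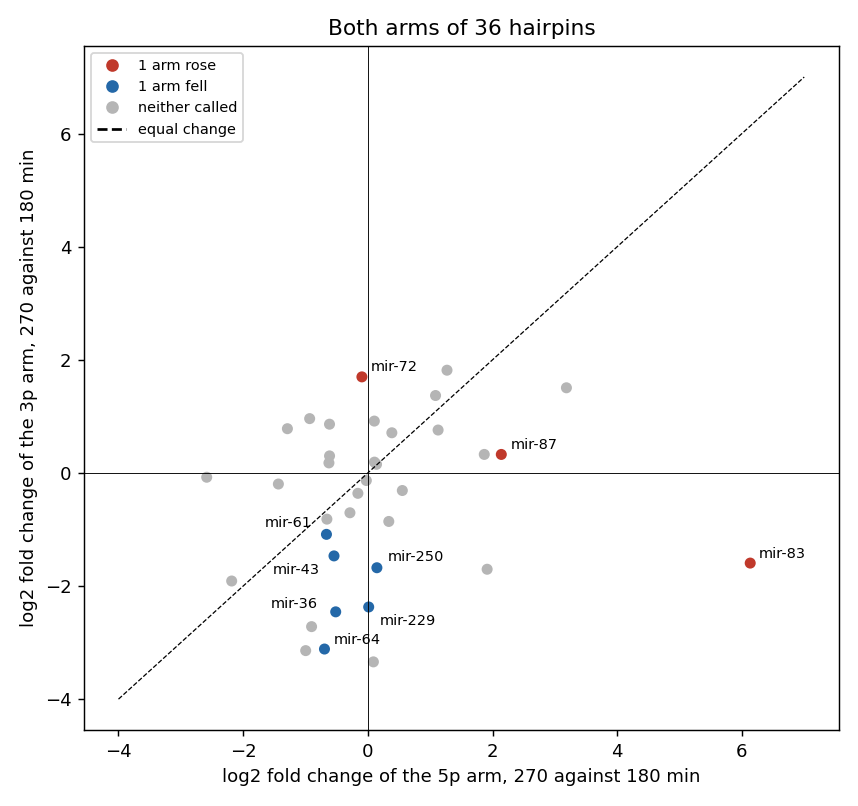
Log2 fold change from 180 to 270 min of the 5p arm (x axis) and the 3p arm (y axis) for the 36 hairpins with both arms tested; red hairpins have 1 arm that rose, blue hairpins 1 arm that fell, and the dashed line marks equal change. The blue hairpins lie below the line, with the 3p arm called, and mir-229 sits at 0.01 for 5p and -2.37 for 3p.

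The lists of families showed few called arms beyond these. They were chosen with earlier results of these data known, so their counts and medians are a description. In the list of 13 conserved hairpins, 4 of 12 tested arms rose (miR-57-3p, miR-236-3p, miR-87-5p and miR-76-3p), against 6.25% of all tested arms, and none fell, against 5.47%. Its median log2 fold change was 1.24, and its share went from 5.32% ± 1.06 to 25.4% ± 3.14 of counts (SD, n = 3 each). Most of that was miR-57-3p, and the list without it took 3.96% ± 0.674 of all counts at 180 min and 5.17% ± 0.619 at 270 min. None of the 7 tested arms of the mir-58 family, the worm relatives of insect bantam, was called, among them miR-81-3p (0.96 ± 0.60, edgeR adjusted p 0.361) and miR-82-3p (0.78 ± 0.46, 0.311). The family's share was 10.5%, 16.2% and 10.9% at 180 min and 22.1%, 16.4% and 25.0% at 270 min, with replicate 2 at nearly the same share in both. The mir-51 family had 0 of 8 called with a median of 0.45.

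Of the 4 tested arms of the mir-44 family 1 was called, the fall of miR-61-3p (5.47% of all arms fell), and miR-45-3p, at 1.20 ± 0.55, was not (edgeR adjusted p 0.175). The family's median was -0.68, and 0.54 without 180 min replicate 1. Both called arms of the mir-2 family, miR-43-3p and miR-250-3p, were falls, out of 6 tested and against 5.47% of all arms, and its share went from 2.08% ± 0.350 to 0.907% ± 0.101. The mir-72 family took 15.4% ± 0.284 of counts at 180 min and 14.9% ± 0.173 at 270 min. Of its 6 tested arms 1 was called, the rise of miR-72-3p (6.25% of all arms rose), and the median was -0.19. Its main arm miR-72-5p had a log2 fold change of -0.10 ± 0.36 (edgeR adjusted p 0.986), which turned to 0.04 with DESeq2 size factors. Of the mir-75 and mir-50 families and the heterochronic miRNAs, which time larval stages, 0 of 3, 0 of 2 and 0 of 3 tested arms were called. The medians were -0.02 (0.011 with DESeq2 size factors), 1.23 and 0.14. Of mir-49 and mir-83, 1 of 3 was called, the rise of miR-83-5p, beside 6.25% of all arms, with a median of 1.07. Single arms of mir-240 and mir-786 (0.13) and of the mirtrons (-0.37), which are spliced out as short introns, were tested and not called, and mir-46 and mir-47 had no reads.

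**Figure D4:**
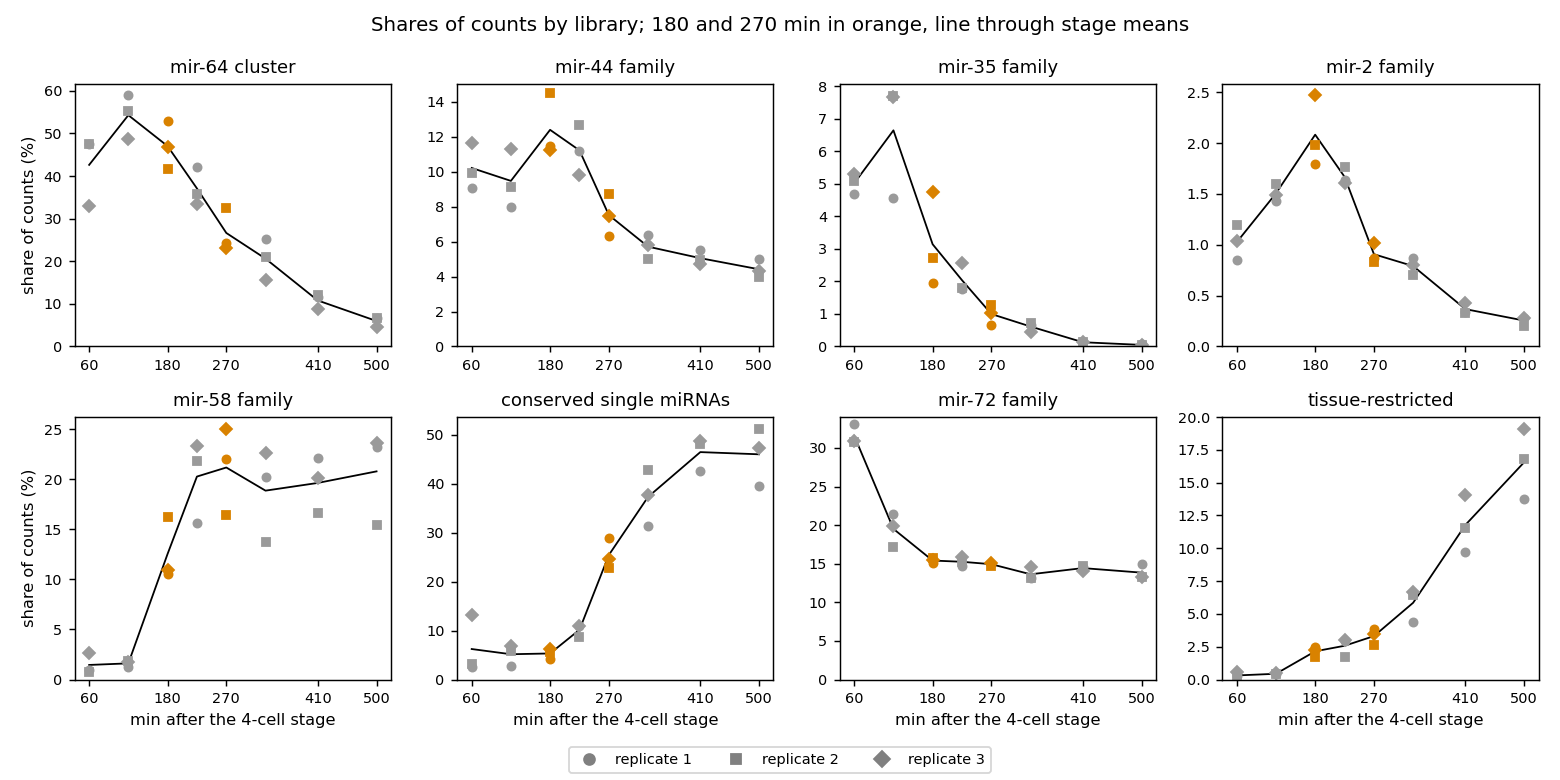
Shares of counts (%) taken by 8 lists in each library over the 8 stages, in min after the 4-cell stage; orange points are the 180 and 270 min libraries, grey points the other stages, symbols mark replicates 1 to 3 and lines join stage means. The mir-64 cluster goes from 47.0% to 26.6% and the conserved single miRNAs from 5.32% to 25.4% between 180 and 270 min.

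The 10 most abundant arms over the 6 libraries took 81.2% ± 3.73 of counts at 180 min and 85.5% ± 2.43 at 270 min. Of these 10, miR-57-3p rose, miR-229-3p fell and 8 were not called: miR-64-5p, miR-65-5p, miR-82-3p, miR-72-5p, miR-44-5p, miR-73-3p (-0.08 ± 0.43), miR-81-3p and miR-228-5p. A p that misses the threshold does not show that an arm was level. On simulated counts for the 128 arms, the test found 30.0% of arms changed by 4-fold and 78.4% of those changed by 16-fold. These rates are for all simulated arms together. They were not worked out for the levels that single arms had at 180 or 270 min. They therefore do not give the chance of finding a change in an arm scarce at these stages.

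The single steps held fewer calls than the whole span. This is not a separate result, because the span was chosen as one whose single steps change few miRNAs. From 180 to 225 min 2 arms were called (1.56%), both rises, and from 225 to 270 min 5 (3.91%), with 3 rises (2.34%) and 2 falls. All of these are among the 15. Both step calls of miR-57-3p held without any 1 library. The one of miR-236-3p did not pass when replicate 2 or 3 of 180 min or replicate 1 of 225 min was left out, nor did that of miR-87-5p without any library of 225 min or without 270 min replicate 1. The step calls of miR-1822-5p, miR-36-3p and miR-229-3p were lost without any 1 of the 6 libraries of their step. No arm differed between the steps past the threshold (edgeR 0 of 128 and DESeq2 0, and 4, or 3.12%, at an unadjusted p under 0.05). This test therefore places none of the changes in the earlier or the later step. It could not place miR-1822-5p, miR-76-3p, miR-83-5p or miR-246-5p, with 0 reads at 225 min and at 180 or 270 min. Their standard errors for the difference were 9902 to 20000 on the log2 scale. By reads within the span, miR-1822-5p was seen only at 270 min and miR-246-5p only at 180 min. The other spans of 2 steps gave 37 calls from 60 to 180 min (28.9%), 11 from 120 to 225 min (8.59%) and 12 from 225 to 330 min (9.38%). There were 24 calls (18.8%) both from 270 to 410 and from 330 to 500 min. These spans last from 90 min (180 to 270) to 170 min (330 to 500), share libraries with each other, and were not compared by a test.

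**Figure D5:**
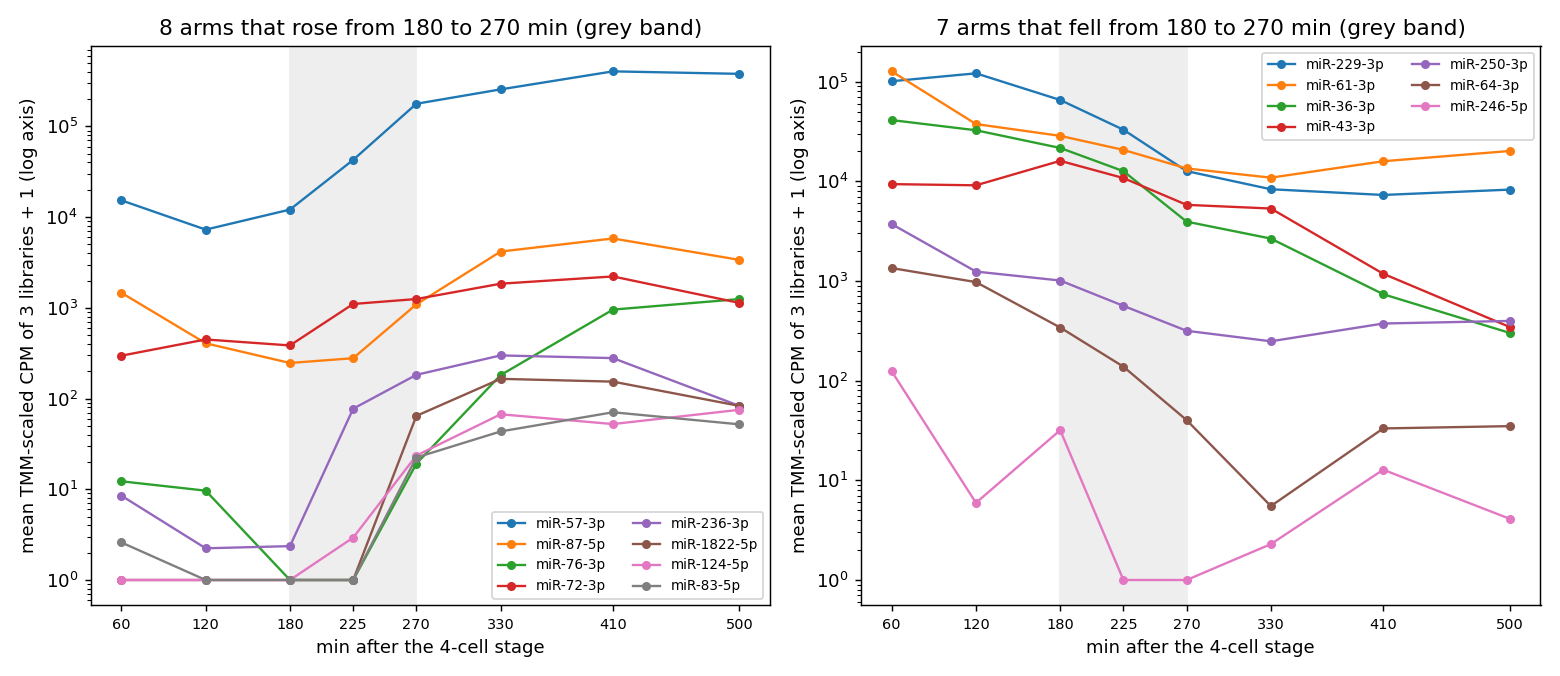
Mean TMM-scaled CPM of 3 libraries plus 1 (log axis) at the 8 stages, in min after the 4-cell stage, for the 8 arms that rose (left) and the 7 that fell (right); the grey band marks 180 to 270 min. miR-57-3p goes from 12106 to 177533 CPM in the band and miR-229-3p from 65586 to 12682 CPM.

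Set in the timecourse, the 15 arms had several shapes. miR-87-5p started at 1463 ± 317 CPM (SD, n = 3 at each stage), stood at 246 ± 94.2 by 180 min and 1090.5 ± 687 by 270 min, and reached 5816 ± 320 CPM by 410 min. It fell from 60 to 180 min (log2 fold change -2.56 ± 0.54, edgeR adjusted p 0.000451) and rose from 270 to 410 min (2.41 ± 0.53, 0.000602). miR-43-3p had its highest mean at 180 min, 16077 ± 5793 CPM, and fell on from 270 to 410 min (-2.30 ± 0.44, 0.000265), as did miR-36-3p (-2.42 ± 0.50, 0.000398). miR-57-3p rose from 270 to 410 min (1.19 ± 0.37, 0.0171), to 404051 ± 73002 CPM, and so did miR-76-3p (5.64 ± 1.20, 0.000557). For miR-229-3p the same span gave -0.80 ± 0.40 (0.175) and for miR-236-3p 0.61 ± 0.95 (0.694), neither past the threshold. These spans share the 180 or 270 min libraries with the comparison, and the differences between spans were not tested.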

How the data were processed

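The authors deposited raw read counts, whole numbers with no normalization, for mature miRNA arms with 1 column per library. Columns were matched to samples by their descriptions. The submitters' processing notes name Bowtie and HTSeq. The sources used here do not state their versions, the build, the miRNA annotation, or how strand and reads with several matches were treated. Libraries were made from total RNA with an Illumina TruSeq small RNA kit, per the labels' protocols, with no molecular identifiers described.

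The analysis used edgeR 4.0.16 in R 4.3.3: filterByExpr by stage with a minimum count of 10, TMM factors, robust dispersions over all 24 libraries with stage as a factor (common biological coefficient of variation 0.706), quasi-likelihood tests and Benjamini-Hochberg adjustment over the 128 arms at 0.05. A standard error is the log2 fold change over the root of F. CPM were taken over library sizes times TMM factors, and shares are percentages of all counts of a library. DESeq2 1.42.0 served as an alternative, beside other scalings, no filter, a fit of the compared stages alone, a replicate block and leaving out each library with arms and factors kept. Fold bounds without each library were added after the data were seen. The procedure was tested on simulated data. Hairpin positions come from Ensembl's WBcel235 annotation, which paired 91 hairpins of the tested arms.

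Same-numbered libraries of 180 and 270 min deviated from their stage means with correlations of -0.05, 0.00 and 0.08, none above the limit of 0.1. They were not taken as paired, though such a check cannot exclude a shared series. Those of 180 and 225 min had 0.18, 0.02 and 0.22, not all above the limit. Those of 225 and 270 min had 0.44, 0.14 and 0.20, all above it. The values given for that step nonetheless come from the fit without pairing, and the replicate block served as an alternative. The replicate block left the count of calls from 225 to 270 min at 5.

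Text names the 10 most abundant arms, the called arms (up to 12 each way), the arms called in the steps, and listed arms. The comparison, its members and the lists were chosen with earlier results of these data known.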

Additional observations from a re-analysis of the deposited data

How the results depend on the processing

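Between 180 and 270 min, 15 arms were called (8 higher, 7 lower), and 8 (5 and 3) without the low-count filter, which adds arms to the adjustment. Leaving out 1 library gave 5 to 10: 5 without 180 min replicate 1 or 3 or 270 min replicate 1, 7 without 270 min replicate 3 and 9 without 270 min replicate 2. DESeq2 size factors gave 16 calls, total counts 17, DESeq2 21 and the replicate block 18, each holding all 15. The fit of the 6 libraries gave 20 (8 and 12), 11 of them shared, and the fit without the 5 most abundant arms 10 (7 and 3). miR-253-3p (-1.87 ± 0.65, edgeR adjusted p 0.0578) was called in 5 alternatives, down to 0.0204. No called arm changed sign in these alternatives.

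From 180 to 225 min the count of 2 became 4 with the replicate block, 1 without the 5 most abundant arms, and 1 to 2 without 1 library. From 225 to 270 min the count of 5 became 3 without the filter, 0 without the 5 most abundant arms, of which miR-57-3p is one, and 1 to 2 without 1 library. It stayed at 5 with the replicate block, and the difference between the steps at 0 in each alternative.

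Small changes moved in sign. The median of all arms was 0.03, 0.19 without the filter, 0.29 without the 5 most abundant arms and -0.22 to 0.28 without 1 library. miR-72-5p (-0.10) turned to 0.040 with DESeq2 size factors or DESeq2, 0.032 with total counts, 0.21 without the filter and, without 1 library, to between -0.44 and 0.36. miR-73-3p (-0.08) turned to 0.18 without the filter, 0.14 without the 5 most abundant arms and to between -0.17 and 0.073 without 1 library. miR-87-3p (0.33) ran from -0.38 to 0.64 without 1 library. List medians changed sign for the mir-58 family (-0.04 without the 5 most abundant arms), the mir-44 family (0.54 without 180 min replicate 1), the mir-72 family (0.02 without the filter) and, in 9, 3, 2 and 2 of 13 alternatives, the mir-75, mir-240 and mir-786, heterochronic and mirtron lists. The cause was not tested. Depth at 180 min limits arms with few reads.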
